A study of Homo sapiens with 2 samples.

Results

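Among sorted human serotonin neurons (SNs) made from pluripotent stem cells, cells were selected whose transcripts included the serotonin-making enzyme TPH2, the transcription factor FEV, the plasma membrane serotonin transporter SLC6A4 and the vesicular monoamine transporter SLC18A2. A cell was a member when it had at least 1 unique molecular identifier (UMI) of each of these 4 genes. Members numbered 912 of 13958 cells that passed the limits on depth and mitochondrial share. The study compared SNs of WA09 (H9) human embryonic stem cells with a TPH2-EGFP knockin with SNs of the same line that also carried a FOXA2 knockout (FKO), to ask whether SNs form without FOXA2. Each condition was read in 1 library with 10x Genomics 3' chemistry, from cells taken at day 42 of differentiation with a Sonic hedgehog agonist and sorted for EGFP. The library labelled WT held 11052 barcodes and 123064653 UMIs, and the library labelled FKO 8806 barcodes and 70588747 UMIs. After the limits, 6385 and 7573 cells were kept, with medians of 12646 and 7122 UMIs. Members were 306 cells of the library labelled WT and 606 cells of the library labelled FKO. A total of 21 barcode sequences occurred in both libraries, and 0 of them belonged to members.

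FOXA2 mRNA itself ran against the labels. Over all kept cells it was at 4.31 CPM (the gene's share of all UMIs of the pooled cells in the customary scaling, 95% interval 3.89 to 4.77) in the library labelled WT and at 22.7 CPM (21.6 to 23.9) in the library labelled FKO. Members had 16 FOXA2 UMIs, 3.07 CPM (1.75 to 4.98), in the first and 170 UMIs, 16.9 CPM (14.5 to 19.7), in the second. A FOXA2 UMI was found in 9 WT members (2.94%) and 63 FKO members (10.4%). The FKO reporter line was built on a clone with a small insertion or deletion that brings an early stop codon, and counts from the 3' end of transcripts show neither such a change nor the protein. Which library carries the knockout therefore rests on the labels, and so does every direction between the libraries. With 1 library per condition, differences between libraries had no replicate error and were not tested. Intervals cover counting error only, and cells are not replicates of a condition.

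Serotonin neurons make their transmitter from tryptophan with TPH2 and the decarboxylase DDC, and the first step needs the cofactor tetrahydrobiopterin (BH4). SLC18A2 (VMAT2) loads serotonin into vesicles, SLC6A4 (SERT) takes it back up after release, and MAOA and MAOB break it down. FEV, with GATA2, GATA3 and LMX1B, maintains the expression of these genes in the mouse raphe.

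Counts of the transporters in members were low, and because members were selected on them, the values are a description. SLC6A4 (ENSG00000108576) reached at most 6 UMIs in a WT member and 11 in an FKO member. Exactly 1 SLC6A4 UMI was present in 65.4% of WT members and 52.6% of FKO members. SLC18A2 (ENSG00000165646) reached at most 4 and 9 UMIs, with exactly 1 UMI in 75.5% and 57.6% of members. Most memberships thus rested on 1 molecule of at least 1 transporter. The median count of TPH2 (ENSG00000139287) was 3 UMIs in WT members and 3 in FKO members. That of FEV (ENSG00000163497) was 26 and 13 UMIs, and at least 5 FEV UMIs were present in 99.7% and 91.9% of members. Exactly 1 TPH2 UMI was present in 22.5% and 24.1% of members, so TPH2 was at the limit in part of the members and FEV in few.

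The promoters of the 4 genes were read from RefSeq on GRCh38.p14, from 250 bases before to 50 bases after the annotated start, and 4 of 4 genes were matched. TPH2 lies at chr12:71938595-71938894, plus strand, FEV at chr2:218985135-218985434, minus strand, SLC6A4 at chr17:30235648-30235947, minus strand and SLC18A2 at chr10:117240864-117241163, plus strand, each given as the window printed. Capitals mark GGAA, the core letters bound by ETS proteins such as FEV, and 6-letter GATA matches, on either strand. GGAA occurred in 95.5% of 35116 annotated promoters, its longer form CCGGAA in 17.2%, and the GATA letters in 25.0%. Matches of letters this common are a description and do not show binding.

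TPH2: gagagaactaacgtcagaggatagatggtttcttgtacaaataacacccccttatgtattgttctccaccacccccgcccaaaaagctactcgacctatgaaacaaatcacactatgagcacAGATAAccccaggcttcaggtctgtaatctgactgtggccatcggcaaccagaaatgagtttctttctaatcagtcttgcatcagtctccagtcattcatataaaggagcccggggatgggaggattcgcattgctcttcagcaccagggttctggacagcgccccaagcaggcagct

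FEV: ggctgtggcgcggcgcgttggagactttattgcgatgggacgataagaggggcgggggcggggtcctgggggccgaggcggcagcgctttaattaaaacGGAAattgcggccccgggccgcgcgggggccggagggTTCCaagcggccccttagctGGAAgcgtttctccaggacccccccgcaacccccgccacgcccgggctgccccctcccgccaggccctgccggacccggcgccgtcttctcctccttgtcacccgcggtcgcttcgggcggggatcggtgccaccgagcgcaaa

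SLC6A4: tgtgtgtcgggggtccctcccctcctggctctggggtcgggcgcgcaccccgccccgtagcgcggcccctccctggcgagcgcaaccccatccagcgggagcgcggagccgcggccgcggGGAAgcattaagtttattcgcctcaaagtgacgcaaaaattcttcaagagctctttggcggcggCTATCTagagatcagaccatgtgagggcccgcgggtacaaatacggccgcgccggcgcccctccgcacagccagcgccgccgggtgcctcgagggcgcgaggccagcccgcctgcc

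SLC18A2: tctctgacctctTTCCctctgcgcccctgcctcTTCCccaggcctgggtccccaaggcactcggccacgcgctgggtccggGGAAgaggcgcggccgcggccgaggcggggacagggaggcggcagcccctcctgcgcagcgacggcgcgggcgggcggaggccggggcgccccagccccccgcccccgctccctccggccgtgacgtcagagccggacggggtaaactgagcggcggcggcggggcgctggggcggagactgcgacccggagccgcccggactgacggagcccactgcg

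The windows held 0 GGAA and 1 GATA matches for TPH2, 3 and 0 for FEV, 1 and 1 for SLC6A4, and 3 and 0 for SLC18A2. The window of TPH2, whose locus carried the EGFP used for sorting, thus had no GGAA letters.

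Members made up 4.79% of kept cells (4.28 to 5.35, exact binomial) in the library labelled WT and 8.0% (7.40 to 8.64) in the library labelled FKO. Of the 4615 and 4026 cells with TPH2 and FEV they were 6.63% and 15.1%. These shares depended on depth, since a rare transcript is more often caught in a cell read deeply. Members had medians of 15716 and 13147.5 UMIs, against 12495 and 6847 in cells with TPH2 and FEV but neither transporter. Among cells of 8000 to 12000 UMIs, members were 4.02% of WT and 14.3% of FKO cells with TPH2 and FEV. Among those of 16000 to 24000 UMIs they were 10.2% and 32.1%. When each cell was thinned to 8000 UMIs before the rule was applied, members were 1.85% (1.52 to 2.23) of 5730 WT cells. In the library labelled FKO the thinned share was 7.34% (6.43 to 8.33) of 2985 cells. Cells under 8000 UMIs could not be thinned, which left out 655 WT and 4588 FKO cells, most of the library labelled FKO. Thinned to 4000 UMIs, which left out 134 and 676 cells, the shares were 0.384% (0.246 to 0.571) and 1.45% (1.18 to 1.76). At equal total UMIs, both transporters were thus found together more often in the library labelled FKO among the cells that could be thinned. Whether the label, the clone, a possible difference in agonist dose or the handling of a library went with this cannot be told apart with 1 library each.

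**Figure D1:**
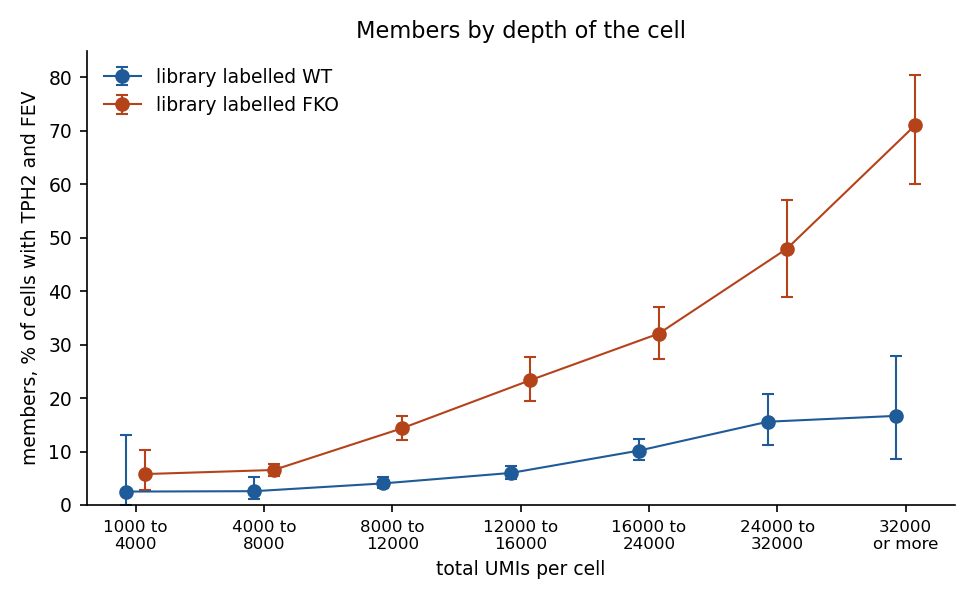
Share of members (%) among cells with TPH2 and FEV against UMIs per cell, for the libraries labelled WT and FKO, with 95% exact binomial intervals as bars. The share is higher in the library labelled FKO in each bin of depth, at 14.3% against 4.02% from 8000 to 12000 UMIs.

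Free RNA can place single transporter molecules in cells that do not express the gene, so cells of other kinds were counted at like depth. In the library labelled FKO between 8000 and 16000 UMIs, 3 of 38 cycling cells (MKI67 and TOP2A, median 11506.5 UMIs) had SLC6A4 and 6 had SLC18A2. All kept cells of that band (median 10211 UMIs) had SLC6A4 in 25.6% and SLC18A2 in 38.9%, against 7.89% and 15.8% in cycling cells. Cycling cells met the full rule in 1 of 38 cases there and in 2 of 21 from 16000 to 32000 UMIs. Transporter UMIs were thus rarer in cycling cells but not missing, and some single UMIs of members could come from free RNA, whose amount was not estimated. Collagen cells (COL1A1, COL1A2 and COL3A1) of the library labelled FKO had SLC6A4 in 12 of 42 cases (median 11631 UMIs) and SLC18A2 in 8 in the lower band. In that lower band, 2 of the 42 collagen cells (4.76%) met the full rule, against 10.4% of all kept cells. In the upper band, 6 of 15 collagen cells (median 21300 UMIs) met it (40%, 16.3 to 67.7), against 29.0% of all kept cells there. In the library labelled WT, 1 of 25 cycling cells from 16000 to 32000 UMIs (median 23686) had SLC6A4, 2 had SLC18A2, and 0 were members, which allows a share of up to 13.7% (exact upper limit). Kept cells of that band (median 19216.5) had SLC6A4 in 22.5% and SLC18A2 in 31.6%. From 8000 to 16000 UMIs, 7 WT cycling cells (median 11996) had 0 with either transporter, which allows up to 41.0%. FEV and TPH2 were also found in cells of other kinds. In the upper band, 24 of 25 WT cycling cells had FEV and 9 TPH2, 20 and 12 of 21 FKO cycling cells, and 15 and 10 of 15 FKO collagen cells. At least 1 UMI of TPH2 and FEV may therefore also be met by cells of other kinds or by doublets. Whether collagen cells with SN transcripts are doublets or a kind of SN was not tested.

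SLC18A2 was found more often in cells that also had SLC6A4. Both genes belong to the rule of membership, so these shares are a description. Among cells with TPH2 and FEV in the lower WT band (8000 to 16000 UMIs), SLC18A2 was found in 23.9% (20.7 to 27.4) of cells with SLC6A4 and 19.0% (17.5 to 20.6) of cells without it. In the upper WT band (16000 to 32000 UMIs) the shares were 43.6% (38.0 to 49.4) and 32% (28.9 to 35.2). In the lower FKO band they were 53.5% (48.7 to 58.2) and 45.1% (41.9 to 48.3). The upper FKO band gave 72.4% (66.4 to 77.9) and 64.9% (58.6 to 70.9), with overlapping intervals. The mean difference was 8.12 points, and with cells thinned to 8000 UMIs, which lowers both shares, it was 4.03 points. With at least 2 SLC18A2 UMIs asked for it was 4.96 points, with 0.788, 4.97, 8.06 and 6.02 points in the lower and upper WT band and the lower and upper FKO band, so little was left of it in the lower WT band. The thinned differences were 3.28, 2.75, 4.96 and 5.15 points in the same order, and no interval was computed for either set.

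The main comparison asked how members differ from the cells with TPH2 and FEV in which neither transporter was caught. It was made within each library and UMI band, which gives 4 strata, and values of the strata are listed in the order the lower WT band, the upper WT band, the lower FKO band and the upper FKO band. Members numbered 154, 133, 237 and 176 cells and comparison cells 1957, 593, 518 and 86. Median depths inside a stratum were near each other in the WT bands, 12711.5 against 11855 and 19502 against 19066 UMIs. In the FKO bands members were deeper, 11332 against 9805.5 and 21538 against 18755 UMIs. Median mitochondrial shares were 8.04, 7.83, 5.16 and 4.72% in members and 8.06, 7.61, 5.33 and 5.36% in comparison cells. Scrublet marked 5.84, 19.5, 11.4 and 29.5% of members as likely doublets and 9.30, 18.4, 11.6 and 29.1% of comparison cells, and these cells were kept. A comparison cell may express a transporter that was not caught, so the comparison class is not a class without the transporters. A further 490, 172, 206 and 67 cells with SLC6A4 alone and 459, 279, 425 and 159 with SLC18A2 alone lay outside both classes.

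Of 5352 genes with at least 20 CPM in each stratum, 0 were at least 1.5-fold higher in members in 4 of 4 strata (0%) and 0 at least 1.5-fold lower (0%). At 1.2-fold, a limit chosen after the data had been seen, 16 genes (0.299%) were higher and 9 (0.168%) lower in 4 of 4 strata. A ratio above 1 of any size in 4 of 4 strata was found for 708 genes (13.2%), and one below 1 for 482 genes (9.01%). The median gene had a mean log2 ratio of 0.02, with -0.16 at the 5th and 0.21 at the 95th percentile. Each of the 4 strata had to pass on its own, so a gene near a limit was seldom counted. With 1 stratum left out in turn, 30, 24, 47 and 25 genes were higher and 14, 12, 23 and 14 lower at 1.2-fold. At 1.5-fold, leaving out the upper FKO band gave 1 higher (SLC10A4) and 1 lower gene (SOX2-OT), the upper WT band 1 higher (GALNTL6), the lower FKO band 1 lower (ANXA2) and the lower WT band 0, with these genes named after their values were seen. Asking for 3 strata thus raised the counts at 1.2-fold whichever stratum was left out. With the WT library alone the counts were 2 and 9 at 1.5-fold and 143 and 68 at 1.2-fold, and with the FKO library alone 5 and 1 at 1.5-fold and 130 and 73 at 1.2-fold. The 16 higher genes were SLC10A4, PLD5, GALNTL6, MAOB, CACNA1A, LIN28B, CXCR4, ALCAM, LCORL, AKAP7, BRINP3, SYT1, RGS9, DMD, RETREG1 and CHGA. The 9 lower genes were GRM3, SLC17A8, ONECUT2, VIM, TTYH1, NRP2, SOX2, LIMCH1 and ADGRL2. By the mean of the 4 strata, 3 genes were higher and 5 lower at 1.5-fold, and 112 higher and 61 lower at 1.2-fold. Members thus differed from cells with TPH2 and FEV and neither transporter in few of the 5352 genes and by small amounts at this depth.

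The largest mean ratio among the 16 belonged to SLC10A4, a member of the bile acid transporter family found on monoaminergic synaptic vesicles. Its level was 43.2, 39.4, 40.6 and 29.4 CPM in members and 25.9, 25.5, 24.2 and 21.0 CPM in comparison cells. The log2 ratios were 0.73 (0.39 to 1.07), 0.63 (0.30 to 0.94), 0.75 (0.37 to 1.12) and 0.48 (-0.07 to 1.06), so in the upper FKO band the interval included 0. SLC10A4 was not a rule gene, but it is on no list and was named because its ratio was the largest among these genes. Its higher level in members is therefore a description.

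**Figure D2:**
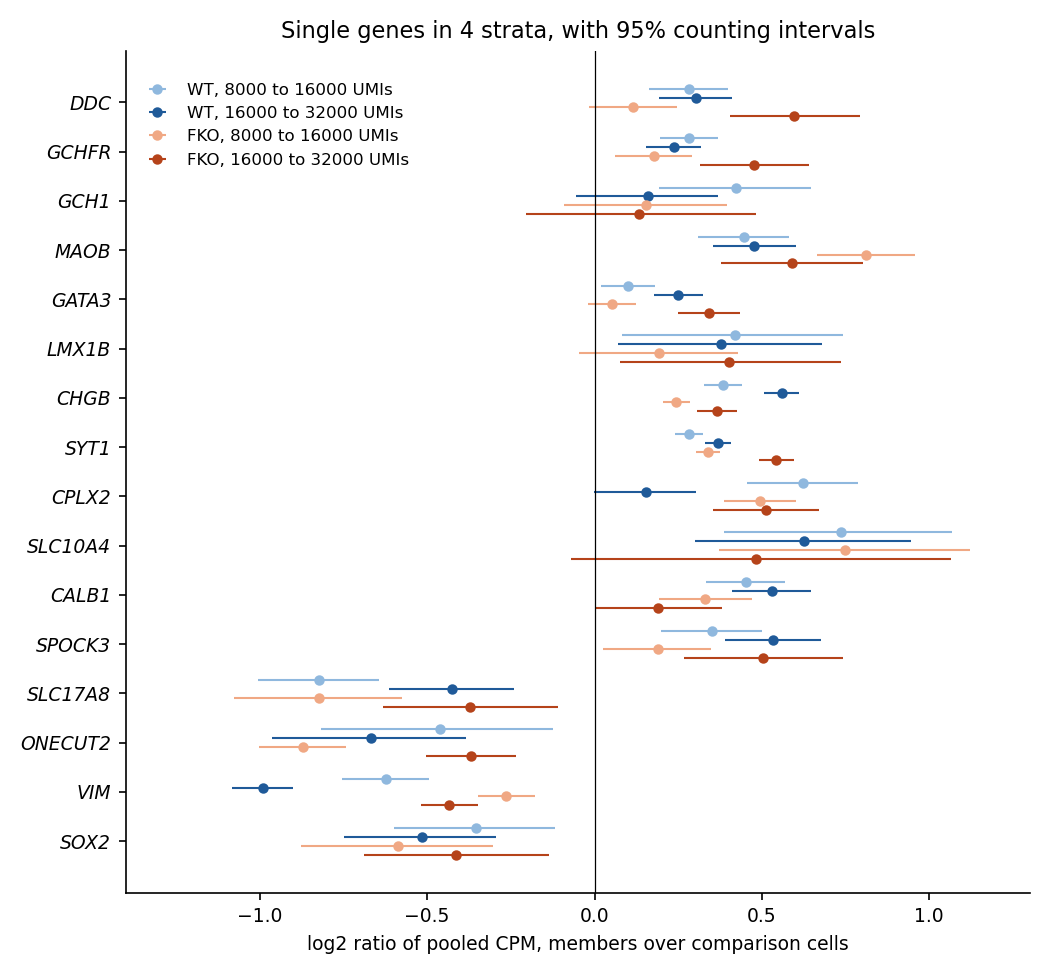
Log2 ratio of pooled CPM in members over comparison cells for 16 genes in 4 strata (points), with 95% counting intervals (lines). MAOB, SYT1 and CHGB lie above 0 in 4 of 4 strata, and SLC17A8, ONECUT2, VIM and SOX2 lie below 0 in 4 of 4.

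A list of genes for serotonin and BH4 synthesis was compared. Of 10 listed genes 7 reached the minimum level, 4 of them (57.1%, against 13.2% of all genes) were higher in 4 of 4 strata, 0 (against 9.01%) were lower in 4 of 4, and the median log2 ratio was 0.17. DDC, which turns 5-hydroxytryptophan into serotonin, had 341, 313, 267 and 249 CPM in members and 280.3, 254, 246 and 165 CPM in comparison cells. Its log2 ratios were 0.28 (0.16 to 0.40), 0.30 (0.19 to 0.41), 0.11 (-0.02 to 0.24) and 0.60 (0.40 to 0.79), and in the lower FKO band the interval included 0. The enzyme that completes serotonin was thus raised in members with each library, by less than 1.5-fold except in the upper FKO band. Its mean was 0.32 (0.25 to 0.39) in members. It was 0.25 (0.17 to 0.32) in cells with SLC6A4 alone and 0.26 (0.20 to 0.32) in cells with SLC18A2 alone, with overlapping intervals. GCHFR, the feedback regulator of the first BH4 enzyme, had a mean log2 ratio of 0.29 (0.24 to 0.35), with 619.8, 540.1, 352 and 338 CPM in members against 509, 459, 312 and 243 CPM. GCH1, that first enzyme, had 0.22 (0.09 to 0.35), and its interval excluded 0 in the lower WT band alone. QDPR, which recycles BH4, had a mean of 0.17 and was higher in 4 of 4 strata. PTS at 0.03 and PCBD1 at 0.00 did not lean either way, and SLC3A2, the heavy chain of amino acid exchangers that carry tryptophan, was at -0.14 with 3 of 4 strata lower. PTS, PCBD1 and SLC3A2 therefore did not follow DDC.

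Of the breakdown enzymes, MAOB stood out. It had 255, 251, 262 and 210.1 CPM in members and 187, 180.2, 149 and 139.7 CPM in comparison cells, with log2 ratios of 0.45 (0.31 to 0.58), 0.48 (0.35 to 0.60), 0.81 (0.67 to 0.96) and 0.59 (0.38 to 0.80). The excess was present at both depths and in both libraries, and the interval excluded 0 in 4 of 4 strata. At least 5 MAOB UMIs were found in 28.6, 54.1, 25.3 and 47.2% of members and in 14.8, 33.4, 9.07 and 20.9% of comparison cells, so the excess was not held by a few cells. MAOA did not reach the minimum level in each stratum, and under it had a mean of 0.32 (0.06 to 0.58) with 3 of 4 strata higher. ALDH2, an aldehyde dehydrogenase acting on the product of MAO, had a mean of -0.10 (-0.24 to 0.04), an interval that includes 0, with 4 of 4 strata lower. None of the 14 serotonin receptor genes reached the minimum level in the 4 strata. HTR1B, a release-limiting autoreceptor, had 4.68, 7.1, 14.5 and 12 CPM in members and 2.96, 2.82, 10.1 and 7.02 CPM in comparison cells, with log2 ratios of 0.66 (-0.53 to 1.67), 1.33 (0.45 to 2.17), 0.53 (-0.10 to 1.14) and 0.78 (-0.16 to 1.83). The HTR1B mean was 0.82 (0.40 to 1.24) and that of HTR1D 0.49 (0.11 to 0.87), each higher in 4 of 4 strata at levels under the minimum.

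Serotonergic transcription factors did not move together. Of 11 that were compared, 2 (18.2%, against 13.2% of all genes) were higher and 3 (27.3%, against 9.01%) lower in 4 of 4 strata, with a median log2 ratio of 0.06. GATA3, a selector of serotonergic fate, had 697, 678, 888 and 952 CPM in members against 650.0, 570.0, 856 and 752 CPM, a mean log2 ratio of 0.19 (0.15 to 0.23). LMX1B, needed for SN differentiation and maintenance in mouse, had 44.7, 42.2, 84.0 and 79.5 CPM against 33.4, 32.5, 73.6 and 60.2 CPM, with ratios of 0.42 (0.08 to 0.74), 0.38 (0.07 to 0.68), 0.19 (-0.05 to 0.43) and 0.40 (0.07 to 0.74). Both factors were thus a little higher in members, with an interval including 0 in the lower FKO band, and at 2 UMIs of each transporter the LMX1B mean was -0.05. GATA2, which acts before GATA3 in the lineage, was lower in 4 of 4 strata with 22.9, 22.7, 32.6 and 37.8 CPM against 30.7, 23.8, 35.3 and 40.3 CPM and a mean of -0.17 (-0.37 to 0.03), an interval that includes 0. EN1, a factor of the rostral hindbrain, was at -0.13 (-0.24 to -0.02). The strongest fall of the list was that of ONECUT2, a factor of early postmitotic neurons, at 39.0, 40.8, 226 and 326 CPM in members and 53.7, 64.8, 413 and 422 CPM in comparison cells, with ratios of -0.46 (-0.82 to -0.12), -0.67 (-0.96 to -0.38), -0.87 (-1.0 to -0.74) and -0.37 (-0.50 to -0.24). TSHZ2 averaged 0.25 with 3 of 4 strata higher. Members therefore combined more GATA3 with less ONECUT2, and the list as a whole did not lean. The pair was not particular to members. Over the same comparison cells, those with SLC6A4 alone had 0.18 (0.14 to 0.22) for GATA3. Their ONECUT2 ratio was -0.34, against -0.59 in members. Cells with SLC18A2 alone had 0.07 (0.04 to 0.11) for GATA3 and -0.03 for ONECUT2.

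Among 22 presynaptic genes, 11 (50%, against 13.2% of all genes) were higher and 0 (against 9.01%) lower in 4 of 4 strata, and the median log2 ratio was 0.13, against 0.02 for all genes. SYT1, the calcium sensor of fast release, had 2796, 2599, 3738 and 3271 CPM in members and 2298, 2013, 2953 and 2246 CPM in comparison cells. Its ratios of 0.28 (0.24 to 0.32), 0.37 (0.33 to 0.41), 0.34 (0.30 to 0.38) and 0.54 (0.49 to 0.59) had narrow intervals because the gene is abundant. CPLX2, a complexin of the vesicle release machinery, averaged 0.45 (0.37 to 0.52). In the upper WT band its ratio of 0.15 was the lowest of the 4 and had an interval that reached 0. The vesicle GTPases RAB3B and RAB3C averaged 0.28 and 0.26, and both were higher in 4 of 4 strata. At 1.2-fold, 1 of the presynaptic genes (SYT1) passed in 4 of 4 strata, so the differences were small. Of 18 dense core vesicle genes, 6 (33.3%, against 13.2%) were higher and 0 (against 9.01%) lower in 4 of 4, with a median of 0.04. CHGB, a granin that packs the vesicle core, had 1449, 1423, 2745 and 2299 CPM against 1109, 966, 2317 and 1785 CPM and ratios of 0.39 (0.33 to 0.44), 0.56 (0.51 to 0.61), 0.24 (0.20 to 0.29) and 0.37 (0.31 to 0.42). CHGA averaged 0.33 (0.19 to 0.48), the carboxypeptidase CPD 0.34 and the prohormone convertase PCSK1 0.19. SCG2 at 0.04 and CPE at -0.03 were near the median of all genes, so the rise lay in single granule genes.

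The 8 mature neuronal markers had a median log2 ratio of 0.06, with MAPT at 0.13, MAP2 at 0.04, NEFL at -0.13 and NEFM at -0.15. The 14 early neuronal genes compared had a median of 0.03, from -0.09 to 0.25. DCX averaged 0.13 and STMN2 0.08. Of the mature markers, 3 (37.5%, against 13.2% of all genes) were higher and 1 (12.5%, against 9.01%) lower in 4 of 4 strata. Of the early genes, 3 (21.4%) were higher and 2 (14.3%) lower. The medians of both lists were thus close to that of all genes, and neurofilaments ran opposite to CHGB within the same list.

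Ion channel genes had a median of 0.10 over 11 genes, with 5 (45.5%, against 13.2% of all genes) higher and 1 (9.09%, against 9.01%) lower in 4 of 4 strata. CACNA1A, the pore of P/Q-type calcium channels, had 65.5, 60.0, 273 and 266 CPM in members and 36.1, 43.4, 226 and 194 CPM in comparison cells. Its ratios were 0.86 (0.58 to 1.13), 0.47 (0.21 to 0.72), 0.27 (0.14 to 0.41) and 0.46 (0.28 to 0.64), so the channel that couples firing to release rose in both libraries, most in the lower WT band. SCN3B and KCNC1 averaged 0.23 and 0.23. KCNJ6, a subunit of the inward rectifier channels opened by inhibitory G proteins, fell with 18.7, 29.5, 58.3 and 88.7 CPM against 34.0, 38.7, 110.0 and 105 CPM and ratios of -0.86 (-1.39 to -0.38), -0.39 (-0.75 to -0.05), -0.92 (-1.18 to -0.66) and -0.25 (-0.51 to 0.02). It missed the 1.2-fold count in 1 stratum, and CACNA1A and KCNJ6 thus moved in opposite directions.

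The 19 guidance and adhesion genes had a median of 0.04, with 5 (26.3%, against 13.2% of all genes) higher and 2 (10.5%, against 9.01%) lower in 4 of 4 strata. CNTN1, a contactin of axonal membranes, averaged 0.31 and NCAM1 0.18. ALCAM, an adhesion molecule of the immunoglobulin family, had 145, 149, 327 and 289 CPM against 108, 103, 221 and 240.3 CPM, a mean of 0.45 (0.37 to 0.53). The semaphorin receptor NRP2 fell, with 79.6, 80.2, 233 and 248 CPM against 108, 98.2, 343 and 392 CPM and a mean of -0.49 (-0.58 to -0.40). CXCR4, the receptor of the migration signal CXCL12, rose with 344, 271, 161 and 125 CPM against 252, 183, 125 and 89.5 CPM. ALCAM and CXCR4 are not on the list and were named after their values were seen. Among the other genes past 1.2-fold, GALNTL6 averaged 0.60 (0.50 to 0.70), PLD5 0.61 (0.46 to 0.75), LIN28B 0.48 (0.31 to 0.65) and RGS9 0.36 (0.20 to 0.51). LIN28B blocks maturation of let-7 microRNAs and RGS9 shortens G protein signals.

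**Figure D3:**
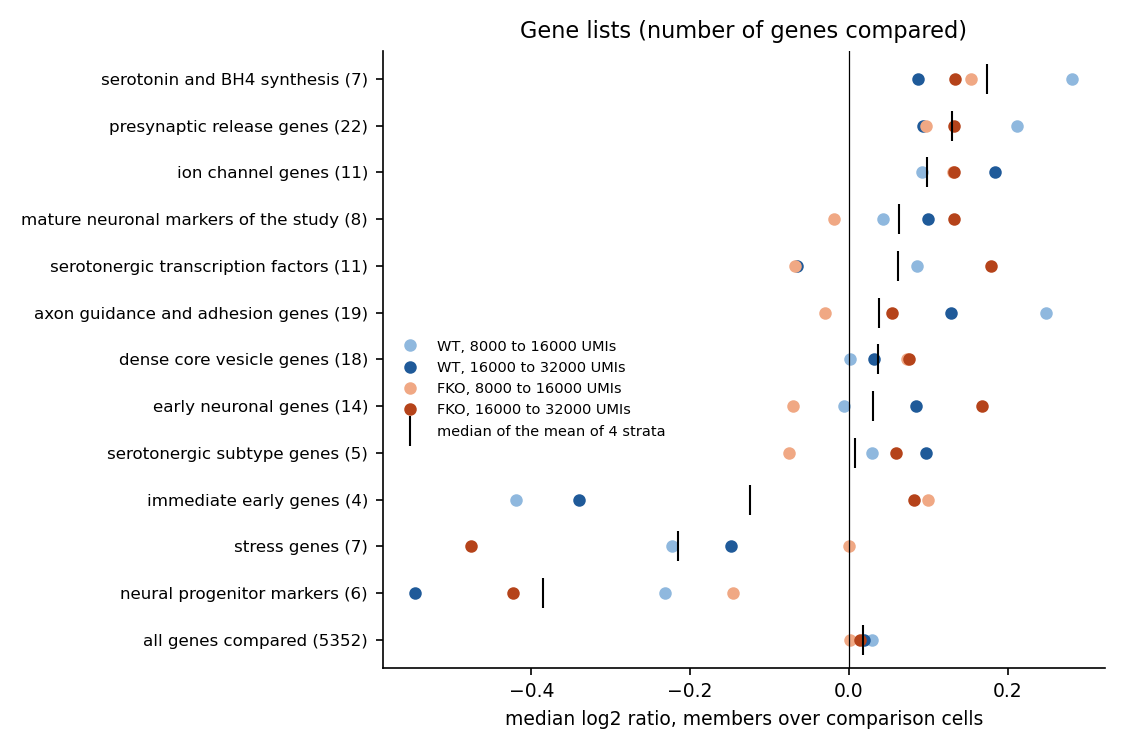
Median log2 ratio of members over comparison cells over the genes of each list that were compared, in each of 4 strata (points), and the median of the mean of 4 strata of each gene (vertical ticks). Presynaptic release genes have a median of 0.13 and neural progenitor markers one of -0.39.

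Transmitter and subtype genes differed in both directions. SLC17A8 (VGLUT3), a glutamate transporter of some raphe neurons, was lower in members, with 138, 99.4, 61.6 and 87.2 CPM against 244, 133, 109 and 113 CPM and ratios of -0.82 (-1.01 to -0.64), -0.42 (-0.61 to -0.24), -0.82 (-1.08 to -0.57) and -0.37 (-0.63 to -0.11). At least 1 SLC17A8 UMI was found in 46.1, 54.1, 22.4 and 36.9% of members and 50, 46.7, 20.7 and 36.0% of comparison cells, more often in members in 3 of 4 strata. At least 5 SLC17A8 UMIs were found in 11, 13.5, 5.49 and 11.9% of members and 17.1, 14, 8.69 and 17.4% of comparison cells. With at least 10 UMIs the shares were 4.55, 6.77, 0.844 and 6.25% and 9.61, 8.60, 3.47 and 5.81%, so the upper FKO band no longer had the lower share in members. The counting intervals of members and comparison cells overlapped in 4 of 4 strata at 5 and at 10 UMIs, and cells rich in SLC17A8 were not absent from members. These UMI limits were chosen after the values were seen. CALB1, a calcium buffer, had 335, 280.0, 249 and 209 CPM in members against 245, 194, 198 and 184 CPM, with ratios of 0.45 (0.33 to 0.57), 0.53 (0.41 to 0.65), 0.33 (0.19 to 0.47) and 0.19 (0.00 to 0.38). At least 5 CALB1 UMIs were found in 36.4, 45.1, 23.2 and 40.3% of members and 21.3, 26.6, 14.3 and 31.4% of comparison cells. In the upper FKO band the intervals of these shares overlapped, at 33.0 to 48.0% and 21.8 to 42.3%. SPOCK3, a secreted proteoglycan, averaged 0.39 (0.31 to 0.48). The pooled levels of CALB1 and SPOCK3 thus went up where that of SLC17A8 went down. NR2F1, a nuclear receptor of the COUP-TF family, averaged -0.31, but its ratios were -0.48, -0.02, -0.79 and 0.06, so the fall lay in the lower bands. TAC1, which encodes substance P, averaged -0.26 with ratios of -0.25, -0.71, -0.22 and 0.12. CHODL, under 20 CPM in at least 1 stratum, had 38.0, 28.0, 27.5 and 21.7 CPM against 17.3, 15.8, 19.6 and 17.0 CPM and ratios of 1.13 (0.75 to 1.5), 0.83 (0.43 to 1.21), 0.49 (0.05 to 0.93) and 0.36 (-0.27 to 1.02). Other subtype genes under that level were lower on average, SIX3 at -0.75 (-1.22 to -0.28) and CALB2 at -0.68 (-1.28 to -0.08), each in 3 of 4 strata, and MET at -0.88 (-1.77 to 0.02) in 4 of 4. Listed subtype genes under the minimum level thus ran in both directions. The hindbrain factors IRX2 and IRX3 averaged 0.27 and -0.19.

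**Figure D4:**
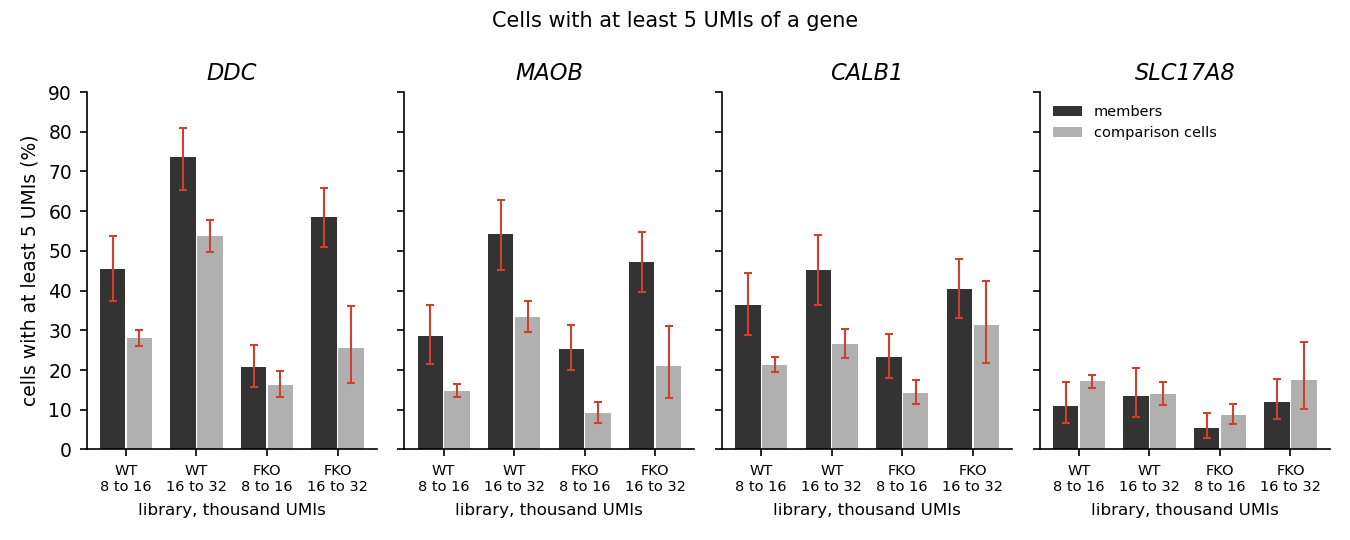
Share of cells (%) with at least 5 UMIs of DDC, MAOB, CALB1 and SLC17A8 in members and comparison cells of each library and UMI band (bars), with 95% exact binomial intervals. MAOB reaches this level in 28.6% of members against 14.8% of comparison cells of the library labelled WT from 8000 to 16000 UMIs.

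Progenitor transcripts were lower in members. Of the listed markers, 15 of 15 were seen in members, with summed levels of 626, 745, 891 and 1184 CPM against 819.6, 1259.8, 1040.1 and 1617 CPM in comparison cells, and VIM was the most abundant. VIM, an intermediate filament of progenitors and glia, had 265, 399.9, 571 and 760.5 CPM in members and 408, 795, 685 and 1027 CPM in comparison cells, with ratios of -0.62 (-0.75 to -0.49), -0.99 (-1.08 to -0.90), -0.26 (-0.35 to -0.18) and -0.43 (-0.52 to -0.35). SOX2, a factor that holds cells in the progenitor state, had 79.6, 66.7, 49.6 and 76.4 CPM against 102, 95.4, 74.5 and 102 CPM and ratios of -0.35 (-0.60 to -0.12), -0.52 (-0.75 to -0.29), -0.59 (-0.88 to -0.30) and -0.41 (-0.69 to -0.13). Members thus had less of both genes in 4 of 4 strata. The median log2 ratio of the progenitor list was -0.39 in members. It was -0.28 in cells with SLC6A4 alone and -0.34 in cells with SLC18A2 alone, so the lower level was not particular to members. The 14 of 14 cycling markers seen summed to 40.6, 32.3, 52.5 and 59.3 CPM against 44.7, 117, 50.1 and 266 CPM, PCNA being the most abundant, so in the upper bands the comparison class held more cycling transcripts. Cells with a UMI of MKI67, TOP2A, CENPF or COL1A1 were therefore left out in a further comparison, 13, 8, 27 and 33 members and 81, 48, 45 and 17 comparison cells. The summed progenitor markers were then 599, 709, 819 and 1015 CPM against 807, 1077, 1006 and 1158 CPM. VIM ratios became -0.71, -0.84, -0.41 and -0.20, and those of SOX2 -0.40, -0.39, -0.43 and -0.14. The lower progenitor transcripts of members were thus also present among cells without these 4 transcripts, on average by a smaller amount. The count of genes lower at 1.2-fold was then 4 (GADD45A, NRP2, ONECUT2 and KCNJ6), of which 2 were among the 9. Of the 16 genes then higher, 11 were among the 16 named.

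Stress genes had a median of -0.22 over 7 genes, with 0 (0%, against 13.2% of all genes) higher and 4 (57.1%, against 9.01%) lower in 4 of 4 strata. GADD45A, a DNA damage response gene, averaged -0.42 (-0.63 to -0.21). The 4 immediate early genes compared had a median of -0.12, and JUN was at -1.07, -0.54, 0.03 and 0.09. Members thus had no excess of stress transcripts as a list. Markers of other cell types were counted as whole lists, and their part in the differences was not tested beyond the comparison without cycling and collagen cells. Floor plate markers (11 of 11 seen, SULF1 the most abundant) summed to 13.5, 46.1, 32.2 and 95.1 CPM in members and 26.4, 84.3, 55.8 and 136 CPM in comparison cells. Mesenchymal markers (14 of 14 seen, COL6A1 the most abundant) summed to 59.8, 90.1, 184 and 335 CPM against 83.6, 102, 175 and 272 CPM. Glial markers (9 of 11 seen, SLC1A2 the most abundant, AQP4 and ALDH1L1 at 0) summed to 52.5, 59.6, 172 and 198 CPM against 49.3, 62.3, 164 and 212 CPM. LIM-homeodomain neuron markers (15 of 19 seen, EBF1 the most abundant, LHX3, TLX3, LBX1 and POU4F2 at 0) summed to 8.84, 11.7, 78.2 and 133 CPM against 15.8, 19.4, 120.2 and 156 CPM. EBF1, itself not a LIM-homeodomain gene, held a large part of the last sum, at 4.68, 4.61, 50.7 and 69.3 CPM against 9.02, 10.1, 80.1 and 83.6 CPM, and LHX2 and LHX4 had higher means with intervals that include 0, 0.28 (-0.56 to 1.13) and 0.51 (-0.06 to 1.07). The floor plate sum was thus lower in members in 4 of 4 strata, and mesenchymal and glial sums had no one direction. By the values printed, the last sum without EBF1 was also lower in each stratum, but it had no interval and was not tested.

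Cells just inside and just outside the rule were compared next. Members at exactly 1 UMI of both transporters had 271, 228, 197 and 163 CPM of MAOB, and members with more had 238, 274, 293 and 222 CPM. Cells with 3 of the 4 genes had 218, 227, 179 and 179 CPM when SLC6A4 was missing and 245, 239.8, 232 and 161 CPM when SLC18A2 was missing. DDC was at 338, 322, 234 and 243 CPM in members at the limit, and GATA3 at 671, 653, 856 and 857 CPM. Without SLC6A4, DDC was at 321, 311, 264 and 225 CPM and GATA3 at 666, 606, 825 and 874 CPM. For these 3 genes, the counting intervals of members at the limit and of cells without 1 transporter overlapped, except for MAOB in the lower WT band, at 271 (239.5 to 306) CPM against 218 (206 to 230.2) CPM without SLC6A4. Cells without TPH2 but with the 3 other genes numbered 33, 7, 55 and 16, with 171, 173, 188 and 166 CPM of MAOB and 587, 369, 699 and 749 CPM of GATA3. These lay apart from members at the limit for MAOB in the lower WT band, and for GATA3 in the upper WT band and the lower FKO band, where cells without TPH2 had less. Few cells were on that side of the limit, and in 4 of 4 strata 0 cells lacked FEV alone.

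Cells with TPH2 and FEV were also ordered by their summed SLC6A4 and SLC18A2 UMIs, the counts on which members were selected. Against cells with 0, MAOB had mean log2 ratios of 0.23, 0.41, 0.59 and 0.97 at 1, 2, 3 to 4 and 5 or more UMIs. SLC10A4 had 0.35, 0.42, 0.58 and 1.0, CHGB 0.19, 0.33, 0.39 and 0.53 and SYT1 0.16, 0.28, 0.38 and 0.53 in the same order. VIM fell stepwise with -0.28, -0.40, -0.66 and -1.14, and ONECUT2 with -0.06, -0.23, -0.71 and -1.17. These 6 genes were chosen after their values were seen, for moving further from 0 at each step, and lists did not all do so. The medians in the same order were 0.02, 0.05, 0.07 and 0.01 for serotonergic transcription factors, -0.01, 0.01, 0.04 and -0.03 for dense core vesicle genes and 0.09, 0.14, 0.14 and 0.23 for presynaptic release genes. SLC17A8 had -0.25, -0.43, -0.60 and -0.22 and LMX1B 0.14, 0.27, 0.24 and 0.01. The richest class held 20, 16, 63 and 72 cells, and without the upper WT band its values were -0.40 for SLC17A8, 0.18 for LMX1B, -0.80 for VIM and 1.02 for MAOB. Its VIM ratios were -1.52, -2.15, -0.12 and -0.77 by stratum, so the mean fall was largest in the small WT classes and near 0 in the lower FKO band. Cells with SLC6A4 alone had a MAOB ratio of 0.41 (0.33 to 0.50) and cells with SLC18A2 alone one of 0.29 (0.22 to 0.37), both under that of members. For SLC17A8 the ratios were -0.10 (-0.21 to 0.01) and -0.45 (-0.54 to -0.35), so its fall went more with SLC18A2 than with SLC6A4. ONECUT2 gave the opposite split, with -0.34 (-0.43 to -0.25) and -0.03 (-0.11 to 0.04). Median depth was 9805.5 UMIs at 0 and 11438 UMIs at 5 or more transporter UMIs in the lower FKO band, and 18755 and 22871.5 UMIs in the upper FKO band. The part of depth in these differences was not tested.

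**Figure D5:**
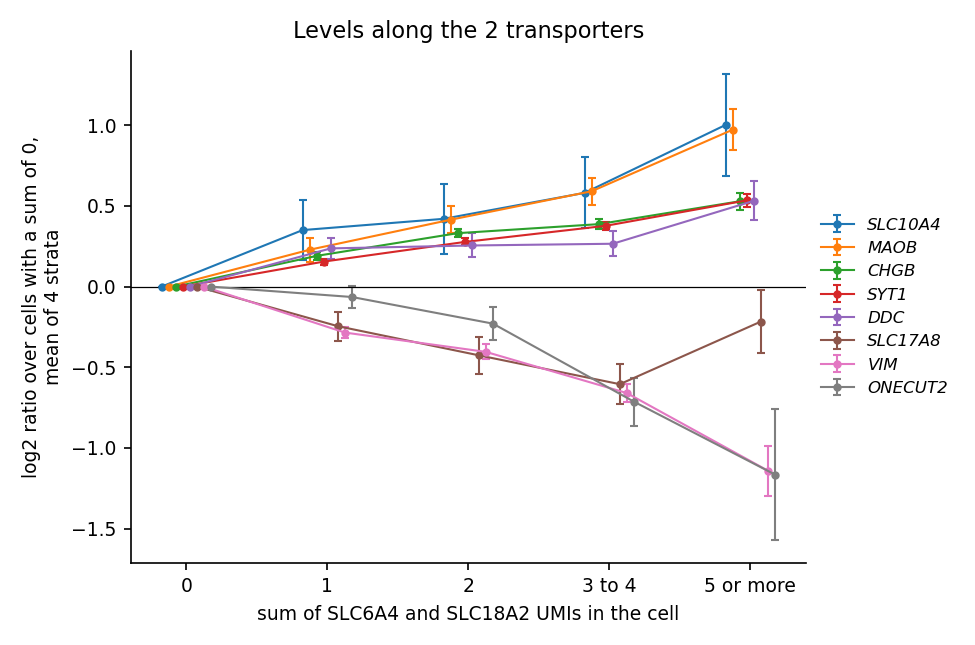
Mean log2 ratio over 4 strata against cells with 0 transporter UMIs, by the summed UMIs of SLC6A4 and SLC18A2 per cell, with 95% counting intervals. MAOB rises to 0.97 and VIM falls to -1.14 at 5 or more UMIs, a class of 20 and 16 cells in the WT bands. VIM is at -0.12 in this class in the lower FKO band.

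Members of the library labelled FKO were set beside members of the library labelled WT within each band. With 1 library each no count of changed genes was made, and the values do not separate genotype from clone, culture or library. Over 3369 genes with at least 50 CPM, FKO members had a median log2 ratio to WT members of 0.22, and comparison cells had 0.25, so single values are also given relative to that shift. The minimum was taken over the pooled members, so a gene low in 1 library could pass. The highest ratio in members by this minimum was that of the nuclear RNA NEAT1, at 3.41 (3.19 relative to the median), with 17.7 CPM in WT and 184 CPM in FKO members of the lower band. ONECUT2 followed at 2.77, TAC1 at 2.66, XKR4 at 2.65 and ENSG00000230606, which has no symbol in the files, at 2.47. The comparison cells gave 2.86, 2.82, 2.23, 2.63 and 2.70 for these genes. The lowest ratios were those of CLIC1 at -2.49, CRABP2 at -2.25, METRN at -2.04, TIMP1 at -1.96 and KRTCAP2 at -1.84. CRABP2 carries retinoic acid to its receptors, and TIMP1 inhibits matrix proteases. Comparison cells had -2.70, -2.31, -2.13, -2.31 and -1.53, near those of members. Of these 10 genes only TAC1 had at least 50 CPM in the members of each library and band, so the order was in part set by the minimum. With that asked for, a minimum chosen after the values were seen, the highest were TAC1 at 2.66, CASK at 2.34, CACNA1A at 2.10, NLGN4X at 1.93 and KCNQ1OT1 at 1.89, and the lowest were CRYBA2 at -1.79, MIF at -1.64, RPS29 at -1.53, MT-RNR1 at -1.52 and NDUFB1 at -1.45. Over the 2493 genes with at least 50 CPM in both classes of each library and band, the ratios of members and comparison cells had a Spearman correlation of 0.983 and a median absolute difference of 0.08 in log2. At these levels, ratios between the libraries were thus mostly alike in both classes.

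Within members, ratios of the rule genes between the libraries describe cells selected on those genes. FEV had log2 ratios of FKO over WT of -0.79 and -0.94 in the lower and upper band, and TPH2 0.02 and -0.44. SLC6A4 had 0.31 and 0.44, and SLC18A2 0.46 and 0.43. Relative to the shift of all genes, SLC6A4 was 0.16 and SLC18A2 0.23, and because the rule and the low counts hold these levels in members, no difference is read from them. DDC was -0.56 and GCHFR -0.97 relative to that shift, and GATA3 was 0.20 and LMX1B 0.69. For lists, a minimum of 20 CPM over the pooled members let in genes that were low in 1 library, 1040 under 20 CPM in WT members alone and 121 in FKO members alone. Medians are therefore given over the 5310 genes with at least 20 CPM in the members of each library and band, a minimum chosen after the values were seen, where the shift was 0.23. Relative to it, the median was -0.82 for 7 synthesis genes and 0.69 for 11 serotonergic transcription factors. Presynaptic release genes (23) had 0.85, ion channel genes (10) 0.81, adhesion genes (18) 0.93 and dense core vesicle genes (18) -0.07. Among genes at the minimum in both libraries, the medians of the release, channel and adhesion lists thus lay above that shift and that of the synthesis list below it.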

How the data were processed

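Single-cell RNA was measured in 1 library labelled WT and 1 library labelled FKO of WA09 TPH2-EGFP cells, at day 42. The deposited count matrices hold raw UMI counts per gene and barcode made by the authors with Cell Ranger (7.1.0 in the file header, 7.0 in the submitters' notes) on GRCh38, and the annotation release was not given in the sources used here.

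Barcodes were kept from 1000 UMIs and 500 genes upward when their mitochondrial share did not pass 10%. Members had at least 1 UMI of TPH2, FEV, SLC6A4 and SLC18A2. Comparison cells had TPH2 and FEV and 0 UMIs of both transporters. UMIs were pooled over the cells of each class within each library and band (8000 to 16000 and 16000 to 32000 UMIs), scaled to CPM over all genes, and compared as log2 ratios for genes with at least 20 CPM over both classes in each of 4 strata. Ratio intervals are exact and conditional on the summed count, CPM intervals are exact Poisson, and share intervals are exact Clopper-Pearson, all at 95% and for counting error only. No test was run, since each condition has 1 library and cells are not replicates. The calculations were tested on simulated counts drawn from the pooled means with counting error only. That test holds no further variation between cells, so it cannot show whether the intervals cover such variation.

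The rule of membership, the strata, the 1.5-fold limit and 23 gene lists were set down before the data were examined here, by which time earlier results of these data were known. Any listed gene could be named, with the 12 highest and 12 lowest genes at 1.5-fold in 4 of 4 strata (there were none) and the 5 highest and 5 lowest of FKO over WT among members at 50 CPM or more. XIST was left out. The genes at 1.2-fold were chosen after the data had been seen.

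Scrublet in scanpy marked 977 WT and 620 FKO barcodes as likely doublets, at 0.8% per 1000 barcodes, and these were kept. Alternatives removed doublets, moved the mitochondrial limit to 5% or 20%, averaged each cell's CPM, weighted comparison cells by depth or thinned UMIs, asked for 2 UMIs of each transporter, took all other cells with TPH2 and FEV for comparison, changed the scaling or the minimum level, used 2-fold, or used 1 library. Chosen after seeing the data were 1.2-fold, limits of 5 and 10 UMIs, the class of 5 or more transporter UMIs without its smallest stratum, leaving out each stratum in turn, a minimum of 20 CPM in the members of each library for lists of FKO over WT and of 50 CPM for its highest and lowest genes, and leaving out cells with a UMI of MKI67, TOP2A, CENPF or COL1A1. Python 3.11.15, numpy 2.4.6, scipy 1.17.1, pandas 2.3.3, scanpy 1.11.5 and matplotlib 3.10.9 were used.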

Additional observations from a re-analysis of the deposited data

Results flagged for a closer look

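Barcodes with 10 to 20% mitochondrial UMIs were left out of the main comparison of members, and members' transcripts were present there too. In the library labelled WT, 48 of 1392 such barcodes with TPH2 and FEV between 8000 and 16000 UMIs met the 4-gene rule, 3.45% (2.55 to 4.55, exact 95% interval). Between 16000 and 32000 UMIs, 21 of 212 did, 9.91% (6.24 to 14.7). They are given because the main comparison left these barcodes out and the shares are above what a count of 0 allows, a limit that any share of this size would pass. Among kept cells with TPH2 and FEV the shares were 5.03% (4.29 to 5.87) and 11.3% (9.55 to 13.2), higher with overlapping intervals. In the library labelled FKO, 2 of 25 and 0 of 3 such barcodes met the rule, too few to set beside these shares. What separates barcodes on the 2 sides of the limit was not tested.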

How the results depend on the processing

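Member shares of cells thinned to 8000 UMIs (1.85% WT, 7.34% FKO) were higher in the library labelled FKO under each alternative run. They were 0.0873% and 0.637% with at least 2 UMIs of each transporter, 0.384% and 1.45% at 4000 UMIs, 6.14% and 21.2% at 16000 UMIs, and 2.98% and 13.3% as shares of cells with TPH2 and FEV. The mean difference in SLC18A2 share was 4.03 points after thinning and 4.96 points at 2 UMIs of SLC18A2, where the lower WT band had 0.788 points.

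The count of 0 genes at 1.5-fold in 4 of 4 strata changed under some alternatives, with genes named after their values were seen. It became 1 higher gene at 5% mitochondrial UMIs (PRSS12), 1 with comparison cells weighted by depth (SLC10A4), and 2 higher (BRINP3, SLC10A4) and 1 lower (GADD45A) at 2 UMIs of each transporter. With no minimum level it was 15 higher and 25 lower. The library labelled WT alone gave 2 (PLD5, SLC10A4) and 9, the library labelled FKO alone 5 (PRSS12, GALNTL6, HS3ST5, MAOB, DPF3) and 1 (CCND2), and leaving out the upper FKO band 1 (SLC10A4) and 1 (SOX2-OT). A single library or fewer strata asks less of each gene.

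At 1.2-fold (16 higher, 9 lower), counts were 37 and 38 at 2 UMIs of each transporter, 5 (PLD5, GALNTL6, LCORL, MAOB, PCDH19) and 3 (NRP2, HMGB2, ONECUT2) against all other cells with TPH2 and FEV, and 9 higher at 50 CPM. With no minimum they were 152 and 134, with the library labelled WT alone 143 and 68, with FKO alone 130 and 73, and without the upper FKO band 25 and 14. Without cells with a UMI of MKI67, TOP2A, CENPF or COL1A1, 4 were lower (GADD45A, NRP2, ONECUT2, KCNJ6).

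Of 174 values of the higher genes and 95 of the lower genes, 1 each changed sign, RETREG1 to -0.19 and SLC17A8 to 0.22, both at 5% mitochondrial UMIs, which leaves 5 and 2 WT members in the bands. Fewer kept their 1.2-fold call. Of the 16 higher and 9 lower genes, 3 and 1 were called at 5% mitochondrial UMIs, 10 and 3 at 2 UMIs of each transporter, 12 and 6 with doublets removed, 12 and 5 with comparison cells weighted by depth, 11 and 8 with UMIs thinned, 4 and 2 against all other cells with TPH2 and FEV, and 11 and 2 without cells with a UMI of the 4 genes above. Other genes described in the text also changed sign. At 2 UMIs of each transporter these were LMX1B, SCG2, JUN, PTS and PCBD1, and at 5% mitochondrial UMIs FEV, PTS, MAP2, MAPT, DCX, SCG2, NR2F1 and IRX3. Against all other cells with TPH2 and FEV they were PTS, PCBD1 and LHX2. The medians of the synthesis, presynaptic, adhesion, immediate early, stress and progenitor lists had 1 sign under 11 of 11 alternatives. That of the subtype list changed sign under 5, and those of the transcription factor, mature, early neuronal, dense core and channel lists under 1 each. None of these 11 used a single library or stratum. By stratum, the immediate early median was -0.42, -0.34, 0.10 and 0.08, so its sign differed between the libraries. In the lower FKO band the adhesion median was -0.03 and the stress median -0.0003. The synthesis, presynaptic and progenitor medians had 1 sign in 4 of 4 strata. The progenitor median of -0.39 became -0.74 at 2 UMIs of each transporter and -0.15 against all other cells with TPH2 and FEV. Under the same settings the stress median of -0.22 became -0.53 and -0.11. Without cells with a UMI of MKI67, TOP2A, CENPF or COL1A1, the progenitor median was -0.25. For FKO over WT within members, the median gene (log2 ratio 0.22) was at 0.19 with each cell's CPM averaged, 0.34 at 5% mitochondrial UMIs and 0.0029 when scaled to the median, which sets it near 0. With 20 CPM asked of the members of each library, which was chosen after the values were seen, the shift itself moved from 0.37 to 0.23. Relative to the shift, the channel list of FKO over WT moved from 1.09 to 0.81 and the presynaptic list from 0.71 to 0.85. The synthesis list moved from -0.95 to -0.82. Before the shift was taken off, the presynaptic and synthesis medians were 1.08 and -0.59 with either minimum, and the channel median moved from 1.46 to 1.04. For other changes the cause was not tested. No paired analysis was possible because each condition has 1 library.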
